A study of Mus musculus with 30 samples.

Results

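Leukocyte marker mRNAs are transcripts made mainly by blood-derived immune cells, and 10 of them were followed in RNA sequencing libraries of mouse sperm. The genes Ptprc, Cd68, Lyz2, Cd74, Itgam, Csf1r, Tyrobp, Fcer1g, Laptm5 and Coro1a were chosen by name. All 10 were rows of the table of sperm collected 24 h after the last injection, among 15380 mRNA and lincRNA features and 16242 features in all. None of the 10 was a row of the table of sperm collected 46 days after it, where 0 of 2459 mRNA and lincRNA features were members.

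The study asked whether activating peroxisome proliferator-activated receptors (PPARs) in adult males changes the RNA carried by sperm. Both groups were C57Bl/6J males that were 3 months old at injection. TESA males received the dual PPARα/γ agonist tesaglitazar at 10 µg/kg by the intraperitoneal route, 2 times per week for 4 weeks. CTRL males received DMSO in saline on the same schedule. Sperm swam out of the cut cauda epididymis into M2 medium, and the pellet was then treated with a somatic cell lysis buffer containing SDS and Triton X-100, a step meant to break cells other than sperm.

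At 24 h, polyA libraries were made from 4 TESA (numbered 1, 3, 5 and 7) and 4 CTRL (numbered 2, 4, 6 and 8) samples. At 46 days, libraries of RNA depleted of ribosomal RNA were made from 7 TESA and 7 CTRL samples. The study gives n as animals in general, but the labels do not state whether each library is a separate animal, so p-values measure the spread between these libraries, which may be technical. Total estimated counts at 24 h ran from 15337517 in CTRL 4 to 27709918 in TESA 7. A single lincRNA, RP23-81C12.3, took between 23.4% of the counts in TESA 7 and 38.3% in TESA 1.

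Mature sperm transcribe little or nothing, and the RNA they hold comes from spermatogenesis and from contact with the epididymis. Macrophages and related phagocytes lie within and beneath the epididymal epithelium, and leukocytes can also enter the fluid around sperm. Because a sperm head holds very little RNA, a small number of somatic cells can add a visible share of transcripts, and pan-leukocyte genes such as Ptprc are therefore commonly examined as a sign of somatic cell RNA in sperm preparations.

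Levels are given as CPM, counts relative to library size, scaled by the trimmed mean of M-values (TMM). All 10 members were present in all 8 libraries at 24 h, and 10 of 10 passed the count filter. Across the 8 libraries, the ratio of the highest to the lowest CPM of a member ran from 2.07 for Tyrobp to 21.5 for Ptprc, with a median of 2.87. CTRL 2 had the highest CPM for 8 of the 10 members and lay above the median of the 8 libraries for all 10. TESA 5 had the lowest CPM for 4 members and TESA 7 for 3. The order of libraries depends on the scaling: with counts over library totals alone, TESA 7 was highest for 7 members and CTRL 2 for Ptprc alone, and TESA 7 was lowest for 2. Lyz2, for example, was then at 105 CPM in TESA 7 and 53.8 CPM in CTRL 2. Scaling with DESeq2 size factors kept CTRL 2 highest for 8 of 10. Values below are TMM-scaled unless another scaling is named. Transcript lengths were not used here, so levels are not ranked between genes.

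Ptprc encodes CD45, the receptor-type tyrosine phosphatase found on nearly all leukocytes, and lies at chr1:138062859-138175756 (GRCm38). Its level was 10.8, 8.09, 1.97 and 0.642 CPM in TESA 1, 3, 5 and 7 and 13.8, 9.30, 4.51 and 7.59 CPM in CTRL 2, 4, 6 and 8. TESA 5 and TESA 7 were below every CTRL library, whereas TESA 1 and TESA 3 lay within the CTRL range. The mean was 5.37 ± 4.85 CPM (SD, n = 4) in TESA and 8.80 ± 3.87 CPM (SD, n = 4) in CTRL. The log2 fold change of TESA over CTRL was -0.71 (SE 0.75) and did not pass edgeR's quasi-likelihood test (unadjusted p of 0.363, adjusted p of 1.00). In TESA 7 the value rested on 28 counts, against 229 in CTRL 8, a library of similar depth.

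Coro1a encodes coronin 1A, an actin regulator of haematopoietic cells. Its level was 11.0, 7.01, 6.21 and 11.0 CPM in TESA 1, 3, 5 and 7 and 15.4, 10.7, 7.08 and 9.02 CPM in CTRL 2, 4, 6 and 8. CTRL 2 was the highest library, and the remaining libraries of both groups were interleaved. TESA and CTRL differed by a log2 fold change of -0.26 (SE 0.34).

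Laptm5, a lysosomal membrane protein that lowers antigen receptor levels in lymphocytes and is active in myeloid cells, stood out in CTRL 2. Its level was 17.4, 18.3, 13.2 and 25.4 CPM in TESA 1, 3, 5 and 7 and 45.6, 18.1, 14.5 and 16.9 CPM in CTRL 2, 4, 6 and 8. CTRL 2 was thus far above the other CTRL libraries, and TESA 7 was the next highest of the 8. The mean was 18.6 ± 5.04 CPM (SD, n = 4) in TESA and 23.8 ± 14.6 CPM (SD, n = 4) in CTRL, and the log2 fold change of -0.35 (SE 0.39) became 0.19 without CTRL 2.

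Among the genes of mononuclear phagocytes, Csf1r encodes the receptor for the cytokines CSF1 and IL-34 on which macrophages depend. Its level was 8.76, 11.9, 5.08 and 4.29 CPM in TESA 1, 3, 5 and 7 and 8.77, 11.9, 6.60 and 8.42 CPM in CTRL 2, 4, 6 and 8. TESA 5 and TESA 7 were the lowest 2 libraries, as for Ptprc, and the other TESA libraries matched the upper CTRL libraries. With a log2 fold change of -0.25 (SE 0.39), the difference was smaller than its error.

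Itgam encodes the integrin αM chain (CD11b) of macrophages, neutrophils and NK cells. The level of Itgam was 8.26, 14.0, 7.84 and 4.27 CPM in TESA 1, 3, 5 and 7 and 13.2, 10.8, 8.83 and 5.87 CPM in CTRL 2, 4, 6 and 8. The highest and the lowest library were both TESA libraries, TESA 3 and TESA 7. The log2 fold change was -0.17 (SE 0.41).

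Cd68 encodes a glycoprotein of macrophage lysosomes and endosomes. Its level was 2.28, 3.03, 0.641 and 4.15 CPM in TESA 1, 3, 5 and 7 and 5.35, 3.48, 1.60 and 1.92 CPM in CTRL 2, 4, 6 and 8. Here TESA 7 was the second highest library rather than among the lowest, and TESA 5 was the lowest on 13 counts. Its log2 fold change of -0.28 carried an SE of 0.66.

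Lyz2 encodes the lysozyme of macrophages and neutrophils, which cuts bacterial cell walls. Its level was 47.1, 46.9, 36.4 and 66.6 CPM in TESA 1, 3, 5 and 7 and 69.7, 41.6, 31.8 and 36.5 CPM in CTRL 2, 4, 6 and 8. CTRL 2 and TESA 7 were the highest 2 libraries, and the rest of both groups overlapped. The mean was 49.2 ± 12.6 CPM (SD, n = 4) in TESA and 44.9 ± 17.0 CPM (SD, n = 4) in CTRL, with a log2 fold change of 0.14 (SE 0.29).

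Tyrobp (DAP12) and Fcer1g (the Fc receptor γ chain) encode small adaptors that pass signals from activating receptors through their tyrosine motifs. Tyrobp was at 7.59, 6.40, 7.84 and 9.75 CPM in TESA 1, 3, 5 and 7 and at 11.3, 6.23, 7.91 and 5.44 CPM in CTRL 2, 4, 6 and 8. Fcer1g was at 3.39, 4.20, 2.22 and 5.09 CPM in TESA 1, 3, 5 and 7 and at 6.60, 4.12, 5.77 and 3.88 CPM in CTRL 2, 4, 6 and 8. For both adaptors CTRL 2 was highest, TESA 7 was the highest TESA library, and the groups overlapped. The log2 fold changes were 0.036 (SE 0.33) for Tyrobp and -0.45 (SE 0.41) for Fcer1g.

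Cd74 encodes the invariant chain, which guides MHC class II molecules to the compartment where they load peptide. Its level was 74.7, 58.0, 62.9 and 64.8 CPM in TESA 1, 3, 5 and 7 and 103, 59.0, 46.3 and 61.7 CPM in CTRL 2, 4, 6 and 8. The 4 TESA libraries lay close together, with both the highest and the lowest library in CTRL. The mean was 65.1 ± 6.99 CPM (SD, n = 4) in TESA and 67.6 ± 24.7 CPM (SD, n = 4) in CTRL, and the log2 fold change was -0.053 (SE 0.26).

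**Figure D1:**
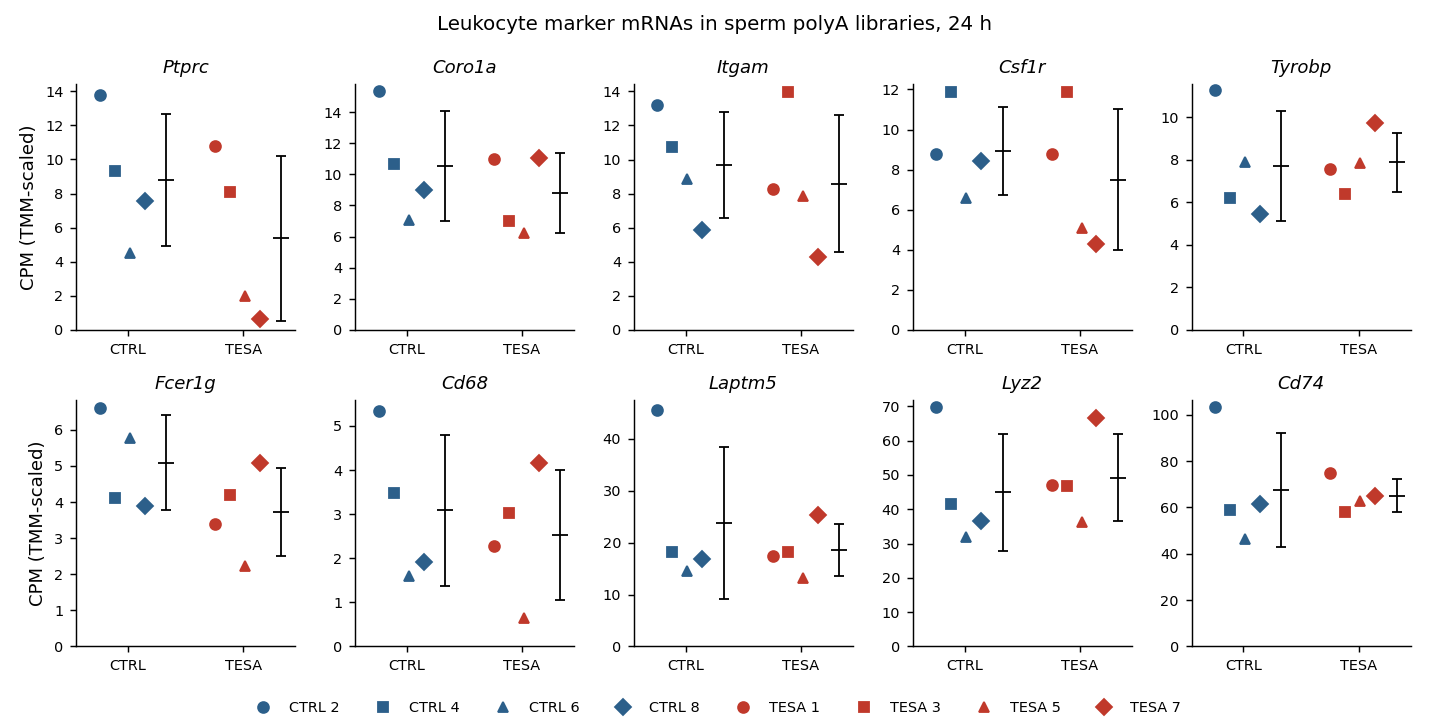
Level of each leukocyte marker mRNA in the 24 h sperm libraries, in TMM-scaled CPM on a linear axis from 0, with 1 symbol per library and the group mean ± SD (n = 4) drawn as a bar to the right of the symbols. CTRL 2 is the highest library for 8 of the 10 genes, and TESA 7 is the lowest for Ptprc, Itgam and Csf1r but near the top for Lyz2, Laptm5 and Cd68; scaled by library totals alone, the highest library is TESA 7 for 7 of them.

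In the comparison of TESA with CTRL at 24 h, edgeR's quasi-likelihood test called 0 of the 10 members at an adjusted p of 0.05, and 0 of 13040 tested features (0%). At an unadjusted p under 0.05 it also called 0 of 10 members, against 314 of 13040 features (2.41%). The exact test of edgeR and DESeq2 each called 0 members at either threshold, and limma voom called 0 after adjustment and 1, Ptprc, without it. For 0 of 10 members did the groups separate without overlap, which was the case for 399 of 13040 features (3.06%). In bulk libraries such as these, fewer leukocytes and less RNA per leukocyte cannot be told apart.

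The fitted mean was lower in TESA for 8 of the 10 members and higher for Lyz2 and Tyrobp. The median log2 fold change of the members was -0.25, and that of all tested features was -0.0086. The 95% interval of the log2 fold change was narrowest for Cd74, from -0.64 to 0.53, and widest for Ptprc, from -2.38 to 0.96, so that a 2-fold difference lay within the interval for Ptprc but outside it for Cd74. This balance of directions rested on CTRL 2, without which 4 of 10 members had a lower fitted mean in TESA and the median was 0.082. Scaling by library totals gave 3 of 10 lower and a median of 0.034 for the members, but it also moved the median of all tested features to 0.21.

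If libraries held different amounts of RNA from the same leukocytes, the members would be high and low in the same libraries, and co-variation over the 8 libraries was therefore examined. Pearson's r of log2 CPM was above 0 for 40 of the 45 member pairs (88.9%), against 49.9% of the 85014280 pairs of tested features. It was above 0.7 for 13 of the 45 pairs (28.9%), against 4.93% of all pairs. The median r was 0.36 for member pairs and -0.0017 for all pairs. Under scaling by library totals the share above 0 was lower for member pairs (26 of 45, 57.8%) than for all pairs (69.9%), while 14 of 45 (31.1%) were above 0.7, against 11.0% of all pairs.

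In a two-sided exact permutation test over the 40320 pairings of the 8 libraries, 12 of the 45 pairs had an unadjusted p under 0.05, all of them with r above 0. After Benjamini-Hochberg adjustment over the 45 pairs, 2 remained. Cd68 and Laptm5 had an r of 0.81 (permutation p = 9.92e-05, adjusted p = 0.00446) and a Spearman coefficient of 0.98 (permutation p = 0.000397, adjusted p = 0.0179). Lyz2 and Laptm5 had an r of 0.88 (permutation p = 0.00218, adjusted p = 0.0491) and a Spearman coefficient of 0.90 (permutation p = 0.00456, adjusted p = 0.103). Without the 2 libraries farthest from the median of the first gene, r was 0.87 for Cd68 with Laptm5 (CTRL 2 and TESA 5 left out) and 0.73 for Lyz2 with Laptm5 (CTRL 2 and TESA 7 left out). With 1 library left out at a time, Cd68 with Laptm5 was called in each of the 8 cases, while Lyz2 with Laptm5 was called without CTRL 6 alone (adjusted p = 0.0446) and had its highest adjusted p without CTRL 2 (adjusted p = 0.262), where r was 0.91. Under scaling by library totals neither pair was called, although r was 0.79 for Cd68 with Laptm5 (adjusted p = 0.1098) and 0.89 for Lyz2 with Laptm5 (adjusted p = 0.0804).

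The members did not move as a single block. Cd68, Lyz2, Laptm5 and Coro1a had r between 0.76 and 0.88 with each other. Cd74 had r of 0.75, 0.81 and 0.78 with Lyz2, Laptm5 and Coro1a but 0.47 with Cd68, and without CTRL 2 these were 0.56, 0.34, 0.53 and 0.12. Ptprc, Csf1r and Itgam formed another set, in which Ptprc and Csf1r had an r of 0.88 (permutation p = 0.00744, adjusted p = 0.0837; Spearman coefficient 0.79) and Ptprc and Itgam an r of 0.74 (permutation p = 0.0576, adjusted p = 0.186; Spearman coefficient 0.67). These groupings were chosen after the values were seen. Between the sets r ran from -0.091 for Ptprc with Lyz2 to 0.36 for Cd68 with Csf1r. Over all 45 pairs it was lowest for Csf1r with Tyrobp, at -0.49, and neither set holds Tyrobp, Fcer1g or Cd74. For Ptprc with Csf1r, r was 0.46 without TESA 5 and TESA 7, so that relation rested on these libraries. Under scaling by library totals r within this set was 0.53 for Ptprc with Csf1r, 0.32 for Ptprc with Itgam and 0.33 for Itgam with Csf1r.

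**Figure D2:**
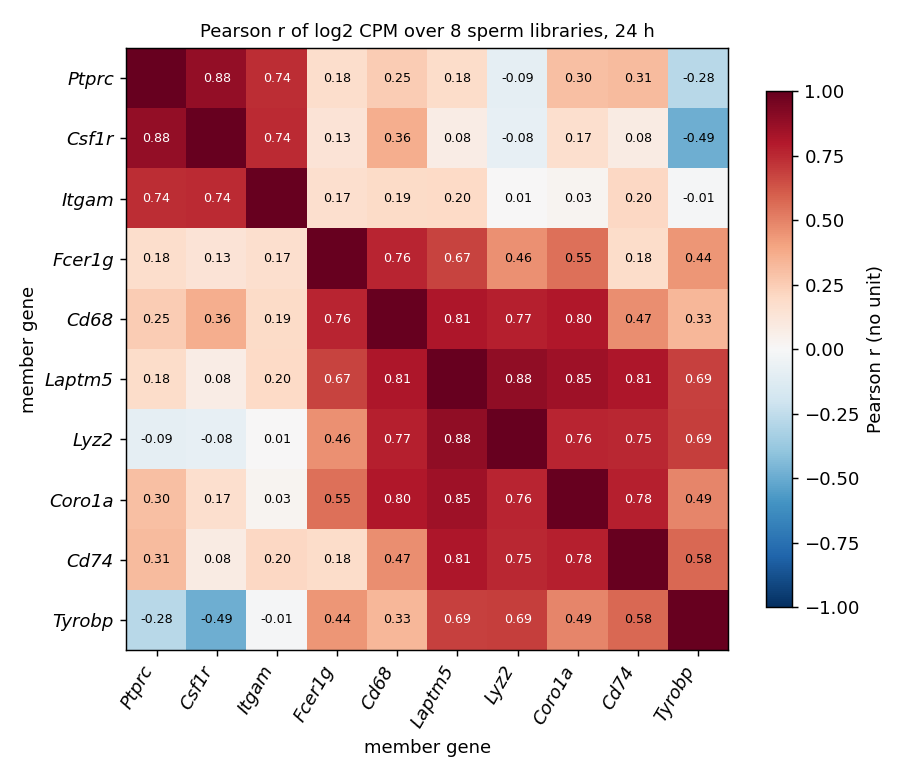
Pearson's r of log2 CPM for each pair of the 10 leukocyte marker mRNAs over the 8 sperm libraries at 24 h, with colour and printed number giving r (no unit). Ptprc, Csf1r and Itgam correlate with each other (0.74 to 0.88) and little with Lyz2 (-0.091 to 0.0072), while Cd68, Laptm5, Lyz2 and Coro1a form a second set (0.76 to 0.88).

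TESA 7 was the library that separated the sets. There, 0.964 counts of Ptprc were found per 100 counts of Lyz2, against 5.42 in TESA 5 and between 14.2 and 22.9 in the other 6 libraries. The same ratio for Csf1r was 6.44 per 100 in TESA 7 and between 12.6 and 28.6 elsewhere. By contrast, Laptm5 had 38.1 counts per 100 counts of Lyz2 in TESA 7, inside its range of 36.3 to 65.5 over the 8 libraries. These ratios within a library do not depend on how libraries are scaled to each other.

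Without TESA 7, 44 of 45 pairs had r above 0 (49.8% of all pairs did) and the median r was 0.61 (-0.0032 for all pairs). Without CTRL 2, 27 of 45 pairs had r above 0 (49.7% of all pairs did), 6 had r above 0.7 (13.3%, against 6.68%) and the median r was 0.080. TESA 7 was also the deepest library and had the highest TMM factor (1.57), and CTRL 2 had the lowest (0.771). The part of depth and scaling in these relations was not tested. With group means removed, the median r was 0.37, so that the co-variation was found within groups as well.

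Many other genes of leukocytes varied with the members over the libraries. Of 30 further leukocyte genes, all 30 were in the table and 27 were tested, and 18 of these 27 were highest in CTRL 2 (9 with library totals, with 12 highest in TESA 7). With the mean of the members' standardised log2 CPM, 13 of the 27 had r above 0.7 (48.1%), against 3.88% of the 13030 tested features that were not members. An r above 0 was found for 22 of the 27 (81.5%), against 47.4% of those features. Without CTRL 2 it was found for 20 (74.1%), against 49.1%. The median r of the 27 was 0.65. Without CTRL 2 the median was 0.36, and 6 of the 27 had r above 0.7 (22.2%), against 8.43% of features. The highest r was found for Cybb (0.91), the membrane subunit of the phagocyte NADPH oxidase, which was singled out after its value was seen.

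Levels of listed genes are in CPM, which is not corrected for length, and give no order between genes. Cd52 had 1849 ± 558 CPM in TESA and 1438 ± 371 CPM in CTRL (SD, n = 4 each). Cd52 encodes a glycopeptide of lymphocytes that epididymal epithelium also makes in large amounts and passes to sperm, and its r with the members' mean was -0.36. The summed level of the list, most of it Cd52, was highest in TESA 7 (2553 CPM), against 1760 CPM in CTRL 2. Lcp1, an actin-bundling protein, had 27.8 ± 8.38 and 24.7 ± 3.13 CPM, and Nckap1l, a subunit of the haematopoietic WAVE complex, had 20.8 ± 9.45 and 28.4 ± 10.5 CPM (TESA and CTRL, SD, n = 4 each). In the list, 8 of 27 tested genes had a higher and 19 a lower fitted mean in TESA, with a median log2 fold change of -0.31, and 0 passed an unadjusted p of 0.05.

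Macrophage and monocyte genes form a further list. Of 20 such genes 18 were in the table and 14 were tested, with 7 higher and 7 lower fitted means in TESA and a median r of 0.32 with the members' mean. Of these 14, 1 had r above 0.7 (7.1%), against 3.88% of tested features that were not members. Without TESA 7, 5 did (35.7%, against 5.53%). Without CTRL 2, 2 did (14.3%, against 8.43%), and the median r was 0.22. Fcgr2b, an inhibitory Fc receptor, was at 93.3 ± 55.0 CPM in TESA and 53.2 ± 31.6 CPM in CTRL, Lgals3 at 29.9 ± 12.1 and 24.1 ± 6.19 CPM and Aif1 at 12.5 ± 6.92 and 14.1 ± 5.62 CPM (SD, n = 4 each). The only gene of the list with an unadjusted p under 0.05 was the lysosomal protease Ctss, named after its value was seen. It was at 5.86, 3.76, 5.03 and 5.00 CPM in TESA 1, 3, 5 and 7 and at 9.11, 8.49, 7.52 and 7.36 CPM in CTRL 2, 4, 6 and 8. The groups did not overlap for Ctss (log2 fold change -0.72, SE 0.30, adjusted p = 1.00 in edgeR's quasi-likelihood test). Ctss also passed an unadjusted p of 0.05 with DESeq2 and limma voom, but not with edgeR's exact test or library totals (log2 fold change -0.49). It also did not pass with most single libraries left out, where the log2 fold change was -0.62 to -0.77.

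MHC class II genes, whose products work with the invariant chain encoded by Cd74, were all 6 in the table. Of the 5 tested, 5 had r above 0 with the members' mean (median 0.56; 3 of 5 and 0.37 without CTRL 2), and 1 had a higher and 4 a lower fitted mean in TESA. H2-Eb1 had 40.2 ± 12.5 CPM in TESA and 46.4 ± 16.6 CPM in CTRL, H2-Ab1 33.8 ± 10.4 and 39.8 ± 15.4 CPM, and H2-Aa 21.5 ± 9.75 and 26.1 ± 8.32 CPM (SD, n = 4 each). The summed level of the list was highest in CTRL 2, at 178 CPM, and between 82.8 and 148 CPM in the other libraries; with library totals it was highest in TESA 7 (151 CPM, against 137 CPM in CTRL 2).

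Markers of single leukocyte lineages were sparser. For neutrophils 7 of 12 genes were listed and Ngp, Camp, Mpo, Elane and Retnlg were not; Ltf (139 ± 50.4 CPM in TESA and 112 ± 14.0 CPM in CTRL), S100a9 (23.0 ± 16.4 and 14.3 ± 2.49 CPM) and S100a8 (11.7 ± 5.71 and 10.5 ± 1.46 CPM) were among those listed, and their list's sum was lowest in CTRL 2 (128 CPM) and highest in TESA 3 (287 CPM). Most of the neutrophil sum was Ltf on average, and Ltf had an r of -0.41 with the members' mean. Of the 6 tested neutrophil genes, 5 had r above 0 (median 0.35, or 0.37 without CTRL 2). For T and NK cells 12 of 21 genes were listed and Cd3e and Cd3g were not, and Cd3d, Lck and Cd8b1 had mean levels of 3.51, 2.23 and 1.66 CPM over the 8 libraries. For B cells 8 of 10 genes were listed and Ms4a1 was not, with Ighm at 16.6 ± 4.20 and 16.1 ± 10.6 CPM and Igkc at 11.6 ± 5.87 and 10.7 ± 8.60 CPM (TESA and CTRL, SD, n = 4 each).

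Of the 7 tested T and NK cell genes 3 were higher and 4 lower, and of the 6 tested neutrophil genes 5 were higher and 1 lower, with 0 at an unadjusted p under 0.05 in either list.

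Markers of epididymal epithelium and smooth muscle took another order of libraries. Of the 16 tested epididymal epithelium genes 3 had r above 0 with the members' mean (median -0.36; 5 of 16 and -0.25 without CTRL 2), and of the 8 tested smooth muscle genes 2 did (median -0.84; 0 of 8 and -0.60 without CTRL 2). The summed epididymal level was lowest in CTRL 2 (718 CPM) and highest in CTRL 8 (2213 CPM), and the smooth muscle sum was lowest in CTRL 2 (28.5 CPM) and highest in TESA 5 (112 CPM). Crisp1, a secreted protein that binds to sperm, had 478 ± 154 CPM in TESA and 804 ± 632 CPM in CTRL, beside Adam7 (88.2 ± 23.0 and 109 ± 36.6 CPM) and Krt18 (110 ± 28.4 and 74.5 ± 23.6 CPM). The part of these cell types in the order of libraries was not tested.

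**Figure D3:**
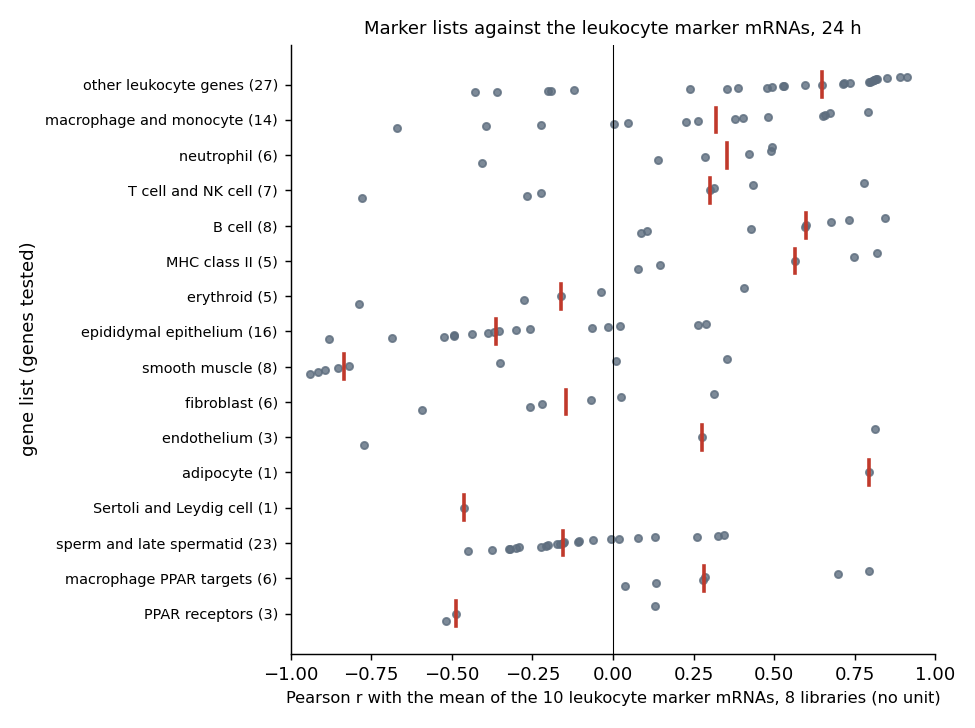
Pearson's r (no unit) over the 8 libraries at 24 h between the log2 CPM of each listed gene (grey points) and the mean of the 10 leukocyte marker mRNAs after standardising, with the median of each list as a red line and the number of genes tested in brackets. The median is 0.65 for other leukocyte genes and -0.84 for smooth muscle genes; without CTRL 2 these were 0.36 and -0.60.

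The remaining lists held few genes that followed the members. Tagln, Myl9 and Myh11, of smooth muscle, had mean levels of 8.37, 8.14 and 7.97 CPM, and 9 of 10 genes of that list were listed. Fibroblast genes (6 of 10 listed) included Col1a1, Col1a2 and Col3a1 at 21.9, 19.2 and 16.0 CPM and had a median r of -0.14, which was 0.17 without CTRL 2. Erythroid genes (5 of 10 listed) included Hba-a2, Hbb-bs and Hba-a1 at 48.9, 45.3 and 24.0 CPM and had a median r of -0.16, or -0.079 without CTRL 2. Endothelial genes (3 of 10 listed) were Vwf, Esam and Pecam1 at 26.2, 2.02 and 1.18 CPM.

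Vwf, the clotting factor carrier of endothelium, had an r of 0.81 with the members' mean and an unadjusted p under 0.05 for TESA against CTRL (adjusted p = 1.00 by edgeR), with 21.7, 20.7, 20.1 and 18.1 CPM in TESA 1, 3, 5 and 7 and 53.0, 30.3, 20.1 and 25.5 CPM in CTRL 2, 4, 6 and 8. Without CTRL 2, r was 0.19, the log2 fold change moved from -0.68 to -0.31 and Vwf did not pass an unadjusted p of 0.05. Vwf also did not pass it with several other single libraries left out. The same was true with limma voom (log2 fold change -0.40), library totals (-0.41) and DESeq2 size factors in edgeR (-0.68). Adipocyte genes (2 of 7 listed, Fabp4 and Car3) and Sertoli and Leydig cell genes (2 of 14 listed, Sox9 and Amhr2) were each below 3 CPM on average. Sperm and late spermatid genes were all 23 listed, with Odf1, Smcp and Prm2 at 2309, 2148 and 1788 CPM, with 6 of 23 above 0 in r (median -0.15), and 1 of 23 without CTRL 2 (median -0.56). Their sum ran from 4120 CPM in CTRL 4 to 13613 CPM in CTRL 8, whereas that of the 10 members ran from 135 CPM in CTRL 6 to 293 CPM in CTRL 2, or with library totals from 141 CPM in CTRL 4 to 308 CPM in TESA 7.

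Because tesaglitazar acts on PPARs, which macrophages express, their lipid-handling targets were read as well. Of 11 such genes 8 were listed and 6 were tested, with 3 higher and 3 lower fitted means in TESA, 0 at an unadjusted p under 0.05, and all 6 above 0 in r with the members' mean (median 0.28). Cpt1a, which starts mitochondrial fatty acid oxidation, had 14.8 ± 6.18 CPM in TESA and 16.5 ± 9.44 CPM in CTRL, the cholesterol exporter Abca1 12.4 ± 7.31 and 13.1 ± 5.87 CPM, and the lipid droplet protein Plin2 3.45 ± 2.05 and 3.79 ± 1.13 CPM (SD, n = 4 each). Ppara and Pparg, the receptors that the drug targets, were not listed, and Ppard, Rxra and Rxrb had 9.97, 17.3 and 10.3 CPM on average. The 3 listed receptor genes had higher fitted means in TESA (median log2 fold change 0.39), with 0 at an unadjusted p under 0.05.

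The 10 features whose log2 CPM was most like the mean of the members' standardised values over the 8 libraries were Zfp513, Tmem184b, Xylt1, Rhobtb2, Pik3r5, Slc15a3, Nfic, Pacs1, Neil1 and Sptbn5. Their Pearson's r ran from 0.99 for Zfp513 to 0.93 for Sptbn5, and from 0.98 for Tmem184b to 0.78 for Sptbn5 without TESA 7 and CTRL 2. None of them was on a marker list. For Xylt1, log2 CPM was 2.59 in CTRL 2 and -2.41 in TESA 5, the libraries in which the members' mean was highest (1.40) and lowest (-0.93).

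The promoters of the members were read for the letters GAGGAA on either strand (TTCCTC on the other). These letters are a form of the site bound by PU.1, the factor that drives macrophage genes. Other forms of that site were not searched, so a stretch without these letters may still hold one. RefSeq promoter windows on GRCm38.p6 were matched for 7 of the 10 members, giving 9 windows. Within 250 bases before the start, 4 of the 9 member windows held the motif (44.4%), against 7639 of 32851 promoters (23.3%). Shown are the 120 bases before the start for Cd68 (chr11:69666171-69666290, minus strand), Lyz2 (chr10:117282273-117282392, minus strand) and Itgam (chr7:128062520-128062639, plus strand), which belong to the different sets of co-varying members. The motif is in capitals, 5′ to 3′ on the strand of the gene.
Cd68: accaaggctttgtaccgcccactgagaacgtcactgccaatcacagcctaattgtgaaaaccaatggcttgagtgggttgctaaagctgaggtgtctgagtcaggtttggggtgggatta
Lyz2: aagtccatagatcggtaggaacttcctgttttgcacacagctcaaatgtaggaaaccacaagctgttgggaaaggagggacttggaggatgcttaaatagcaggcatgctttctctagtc
Itgam: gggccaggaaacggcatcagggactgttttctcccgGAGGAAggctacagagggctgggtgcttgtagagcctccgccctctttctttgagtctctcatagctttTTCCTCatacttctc
The Itgam window held the motif once on each strand. The Lyz2 and Cd68 stretches held none, and the Cd68 promoter held it farther from the start. Of the members not shown, Laptm5, from the set of Cd68 and Lyz2, held TTCCTC in these 120 bases. That stretch lay within the span of Laptm5 itself and over Gm38599, rather than before the gene. The stretches of Coro1a, Fcer1g and Ptprc, the last from the set of Itgam, held none. A Ptprc promoter held the motif farther from the start. The Ptprc stretches and a Coro1a stretch also lay within the spans of their own genes. A match is a run of letters, not a measured binding site.

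At 46 days the members could not be compared, because 0 of 10 were rows of the table. Each of its features had over 20 counts in at least 3 of the 14 libraries, so a gene that is not a row may have had lower counts rather than none. Total counts were 4538101 to 13513801, of which mRNA and lincRNA features took between 0.69% in TESA 2 and 53.5% in CTRL 14. Of the further leukocyte genes, 4 of 30 were rows (among them Cd37, Dock2 and Nckap1l), with 2 of 20 macrophage and monocyte genes (Aif1 and Fcgr2b), 1 of 6 MHC class II genes (H2-Eb1) and 0 of the neutrophil, T and NK cell and B cell genes. Of the sperm and late spermatid genes 21 of 23 were rows, and 0 of the epididymal epithelium, smooth muscle, fibroblast, erythroid, adipocyte, Sertoli and Leydig cell genes. Of the endothelial genes 1 of 10 was a row, Vwf, at 51.8 CPM on average. Its groups overlapped at 46 days, with a log2 fold change of -0.051 (SE 0.22).

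Fcgr2b had 10.0, 19.8 and 27.0 CPM as lowest, median and highest of the 7 TESA libraries at 46 days and 16.6, 21.0 and 23.5 CPM in CTRL. The groups overlapped, with a log2 fold change of -0.21 (SE 0.22).

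By edgeR's quasi-likelihood test 0 of 2263 tested features had an adjusted p under 0.05 (0%) and 130 (5.74%) an unadjusted p under 0.05, while DESeq2 called 0 and edgeR's exact test 12 after adjustment. The 6 tested leukocyte, macrophage and MHC class II genes had unadjusted p-values above 0.05. Abca1, the only macrophage PPAR target listed, had 2.12, 4.16 and 86.6 CPM in TESA and 1.51, 1.87 and 2.67 CPM in CTRL (lowest, median and highest, n = 7 each). The groups overlapped, and TESA 12 alone held the highest value. The log2 fold change of 2.92 (SE 0.81, adjusted p = 0.513 by edgeR) was 0.87 without TESA 12.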

How the data were processed

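RNA sequencing libraries of mouse sperm were analysed at 24 h (polyA, 4 TESA and 4 CTRL) and 46 days (total RNA depleted of rRNA, 7 and 7). The authors trimmed reads with Trim Galore 1.16 and deposited estimated counts per feature from Salmon 0.11.2, for GENCODE transcripts, piRNA precursors and repeat families on GRCm38. Deposited estimated counts were rounded to whole numbers. TMM factors were computed over all features; mRNA and lincRNA features with over 20 counts in at least 4 (24 h) or 6 (46 days) libraries were tested with edgeR 4.0.16 in R 4.3.3 (quasi-likelihood, two-sided), with Benjamini-Hochberg adjustment over all of them. limma 3.58.1 and DESeq2 1.42.0 served as alternatives. Correlations used log2 CPM (prior count 2) in Python 3.11.15 with exact permutation of pairings over 8 libraries. The quasi-likelihood fit and the correlation test were tried on simulated data, and no outcome of that trial is reported here.

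The members and lists were chosen with earlier results of these data known. Named genes were the 10 members, in each of 16 further lists the genes with an adjusted p under 0.05 and the 3 with the highest mean CPM at 24 h, and the 10 tested features most like the members' mean; some of these genes are not reported here. The lists were other leukocyte, macrophage and monocyte, neutrophil, T and NK cell, B cell, MHC class II, erythroid, epididymal epithelium, smooth muscle, fibroblast, endothelium, adipocyte, Sertoli and Leydig cell, and sperm genes, macrophage PPAR targets and PPAR receptors. Fabp4 was on 2 lists. The 24 h table held 15380 mRNA and lincRNA features, 632 repeats and 230 others. Of the mRNA and lincRNA names 12496 were in RefSeq (GRCm38.p6), which gave positions and promoters. Alternative tests, scalings, count filters and left-out libraries were tried. A table of short RNA in serum was not used here.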

Additional observations from a re-analysis of the deposited data

Results flagged for a closer look

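Among the leukocyte marker mRNAs, Laptm5 in CTRL 2 at 24 h (45.6 CPM) stood far from the other 3 CTRL libraries, of which the nearest was at 18.1 CPM. At 46 days TESA 12 stood apart from the other 6 TESA libraries for 2 genes of the PPAR lists, with Abca1 at 86.6 CPM (nearest 6.02 CPM) and Rxra at 11.9 CPM (nearest 3.50 CPM). In all, 42 groups of values were examined and 3 had such a gap. For independent groups of values with a normal spread, chance gives such a gap in about 1 of 20 groups. The groups share libraries and a normal spread was not checked, so this rate may not hold here.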

How the results depend on the processing

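At 24 h, 0 features and 0 members were called after adjustment under each of the 18 alternatives run, 8 of which left out a library, with 314 features at an unadjusted p under 0.05 in the main fit, 142 with library totals, 921 with limma voom and 211 to 466 when a library was left out. Of these, 128 were higher and 186 lower in TESA in the main fit, and 116 and 26 with library totals. Limma voom with quality weights gave 1 member (Ptprc) at an unadjusted p under 0.05. Lower fitted means in TESA were found for 4 members with limma voom, 3 with library totals, and 4 to 9 when a library was left out, and the members' median log2 fold change became 0.060, 0.034 and -0.38 to 0.082 respectively. Without TESA 7 and CTRL 2 together, chosen after seeing the data, 6 of 10 members were lower.

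No member's log2 fold change was called, and most changed sign somewhere. With limma voom it was 0.50 for Cd68, 0.13 for Cd74, 0.085 for Laptm5 and 0.035 for Coro1a. With library totals it was 0.15 for Cd68, 0.21 for Cd74, 0.0072 for Itgam, 0.018 for Laptm5 and 0.050 for Coro1a. Without TESA 7 and CTRL 2 together it was 0.23 for Cd74 and 0.24 for Itgam. Leaving out each library gave -0.63 to 0.14 for Cd68, -0.043 to 0.44 for Lyz2, -0.20 to 0.24 for Cd74, -0.51 to 0.059 for Itgam, -0.10 to 0.29 for Tyrobp and -0.54 to 0.19 for Laptm5. Ptprc (-1.29 to -0.34 when a library was left out, -1.75 with limma voom and -0.041 without TESA 7 and CTRL 2 together), Csf1r and Fcer1g kept a negative sign. The cause was not tested.

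The median r of member pairs was 0.33 to 0.43 under other scalings, another prior count, group means removed, or without TESA 7 and CTRL 2 together, and 0.080 to 0.61 when a library was left out. With library totals the median over all pairs of features was 0.24, and 26 of 45 member pairs were above 0 (57.8%), against 69.9% of all pairs. Pairs called for r numbered 0 with library totals, 0 without TESA 7 and CTRL 2 together, and 1 to 4 when a library was left out, with fewer libraries in the latter settings. Without CTRL 2, 6 pairs had r above 0.7. The median ratio of the highest to the lowest library was 2.93 to 2.95 under other scalings, but the highest library changed from CTRL 2 (8 of 10 members) to TESA 7 (7 of 10) with library totals.

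At 46 days 0 features were called under the alternatives run, other than 12 with edgeR's exact test (the study's test), among them Abca1. At an unadjusted p under 0.05 the main fit gave 130 features (112 higher and 18 lower in TESA), against 40 (5 and 35) with library totals, 134 (47 and 87) with limma voom, 47 (26 and 21) with libraries 1 to 10 alone, 76 (54 and 22) with a term for libraries 11 to 14 and 86 (72 and 14) without CTRL 7. Without TESA 12 the balance turned to 71 (25 and 46), and without TESA 2 and TESA 12 together to 78 (32 and 46). Library totals moved the median log2 fold change of all features to -1.03. No paired analysis was possible because the TESA and CTRL groups compared share no library number. Counts limit the lowest members, such as Ptprc with 28 in TESA 7 and Cd68 with 13 in TESA 5.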

Other observations

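Lck, a kinase of the T cell receptor, was listed at 0 CPM in TESA 1, 3 and 5 and at 1.70 CPM in TESA 7, against 7.35, 3.64, 2.43 and 2.72 CPM in CTRL 2, 4, 6 and 8. The groups did not overlap, but edgeR's quasi-likelihood test did not call the difference (adjusted p = 1.00). For every other T and NK cell gene in the table the groups overlapped. Cd3d, a subunit of the T cell receptor complex, was at 4.38 ± 3.20 CPM in TESA and 2.64 ± 0.943 CPM in CTRL (SD, n = 4 each).

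Krt14, a basal cell keratin chosen after its values were seen, was at 2.46 ± 0.726 CPM in TESA and 0.490 ± 0.585 CPM in CTRL (SD, n = 4 each) and did not overlap between groups (adjusted p = 1.00 by edgeR). The same held for Rxra, the shared partner of the PPARs, at 19.8 ± 5.63 and 14.8 ± 0.419 CPM (adjusted p = 1.00 by edgeR).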
